A study of Mus musculus with 10 samples.

Results

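The 42 genes described here encode ligands, receptors, antagonists and SMAD proteins of the bone morphogenetic protein (BMP) and transforming growth factor β (TGF-β) pathways, together with latent TGF-β binding proteins. They were found by symbol among 18103 genes in a table of RNA sequencing counts, and each of the 42 had 1 row. The table holds 10 libraries of mouse breast cancer cells harvested on day 7, with 2 libraries from 2 independent experiments in each of 5 groups. Py2T-LT cells, which are long-term Py2T cells, received BMP2 together with a MEK inhibitor, the MEK inhibitor alone, or control medium. MTΔECad cells, described as mesenchymal and named for the loss of E-cadherin, received either the PPARγ agonist rosiglitazone or control medium. Sample titles give day 7 except those of the MTΔECad controls, which name no day. The protocol gives usual doses of 200 ng/ml human recombinant BMP2, 40 µM PD98059 as MEK inhibitor and 2 µM rosiglitazone, with DMSO in the medium of control cells, whereas the sample labels give no dose. The differentiation protocol for cancer cells also adds rosiglitazone after the first days of BMP2. The labels of the Py2T-LT samples do not name that drug, and its presence in those cultures is unknown. No group received BMP2 alone, and each genotype is represented by a single line, so differences between the lines describe these 2 lines.

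BMP and TGF-β family ligands bring together a type II and a type I serine/threonine kinase receptor, and the type I receptor then phosphorylates SMAD proteins. BMP receptors act mainly on SMAD1 and SMAD5, TGF-β and activin receptors mainly on SMAD2 and SMAD3, and both branches share SMAD4. Secreted antagonists bind the ligands before they reach a receptor, and several antagonist genes are themselves targets of the pathway. In mammary tumour cells TGF-β is known for driving the change to a mesenchymal state, and BMP ligands are known for committing mesenchymal precursors to the fat lineage.

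Levels are given in CPM, which are counts scaled to a common library size, and library totals were adjusted by TMM, a normalization that allows for differences in RNA composition. Library totals ran from 14659987 to 17249199 counts, so that 1 count was worth at most 0.070 CPM. The words rose and fell are kept for genes with a p under 0.05 in the quasi-likelihood test of edgeR, after Benjamini-Hochberg adjustment over 13149 genes. The error given with a log2 fold change is its standard error (SE). With 2 experiments per group, p-values reflect how far replicate experiments differed over all 5 groups, which share 1 estimate of the spread. The BMP2 plus MEK inhibitor, MEK inhibitor and between-line comparisons share the same 2 Py2T-LT control libraries. Those controls differed more between replicates (chi-square per gene 16.8) than the other groups did (5.39 to 7.70), and results that rest on 1 of them are given with and without it. All 10 mesenchymal marker genes were detected at 1 CPM or more in both libraries of each group except the Py2T-LT controls, where 9 were. None of the 6 endothelial markers with a row reached 1 CPM in both libraries of any group. Of 3 haematopoietic markers with a row, 1 (Cd68, at 2.03 to 7.17 CPM) did so in every group. Of 12 epithelial markers, 4 did so in each MTΔECad group. The number was 6 in Py2T-LT controls and with the MEK inhibitor alone, and 7 with BMP2 and the inhibitor. Krt8 averaged 199 CPM in MTΔECad controls and 219 CPM in Py2T-LT controls, Krt14 9.36 and 10.1 CPM, and Krt18 76.7 and 389 CPM. Cdh1, which encodes E-cadherin, stood at 2.57 and 2.25 CPM in MTΔECad controls against 36.0 and 31.7 CPM in Py2T-LT controls. Gene-level counts do not show which exons of Cdh1 those reads came from.

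Of the 42 genes, 33 were at 1 CPM or more in both libraries of Py2T-LT cells with BMP2 and the MEK inhibitor, 35 with the MEK inhibitor alone and 34 in Py2T-LT controls, against 30 in each MTΔECad group. A set of 29 genes met this level in all 5 groups. Gdf6, Gdf10, Acvrl1 and Sostdc1 were at or below 2 counts in each library, and none of the 4 was tested. In the heat map of levels the rows of Smad2, Smad4 and Smad5 are even across the groups, whereas those of Bmp2, Nbl1 and Fstl1 differ visibly between the lines.

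**Figure D1:**
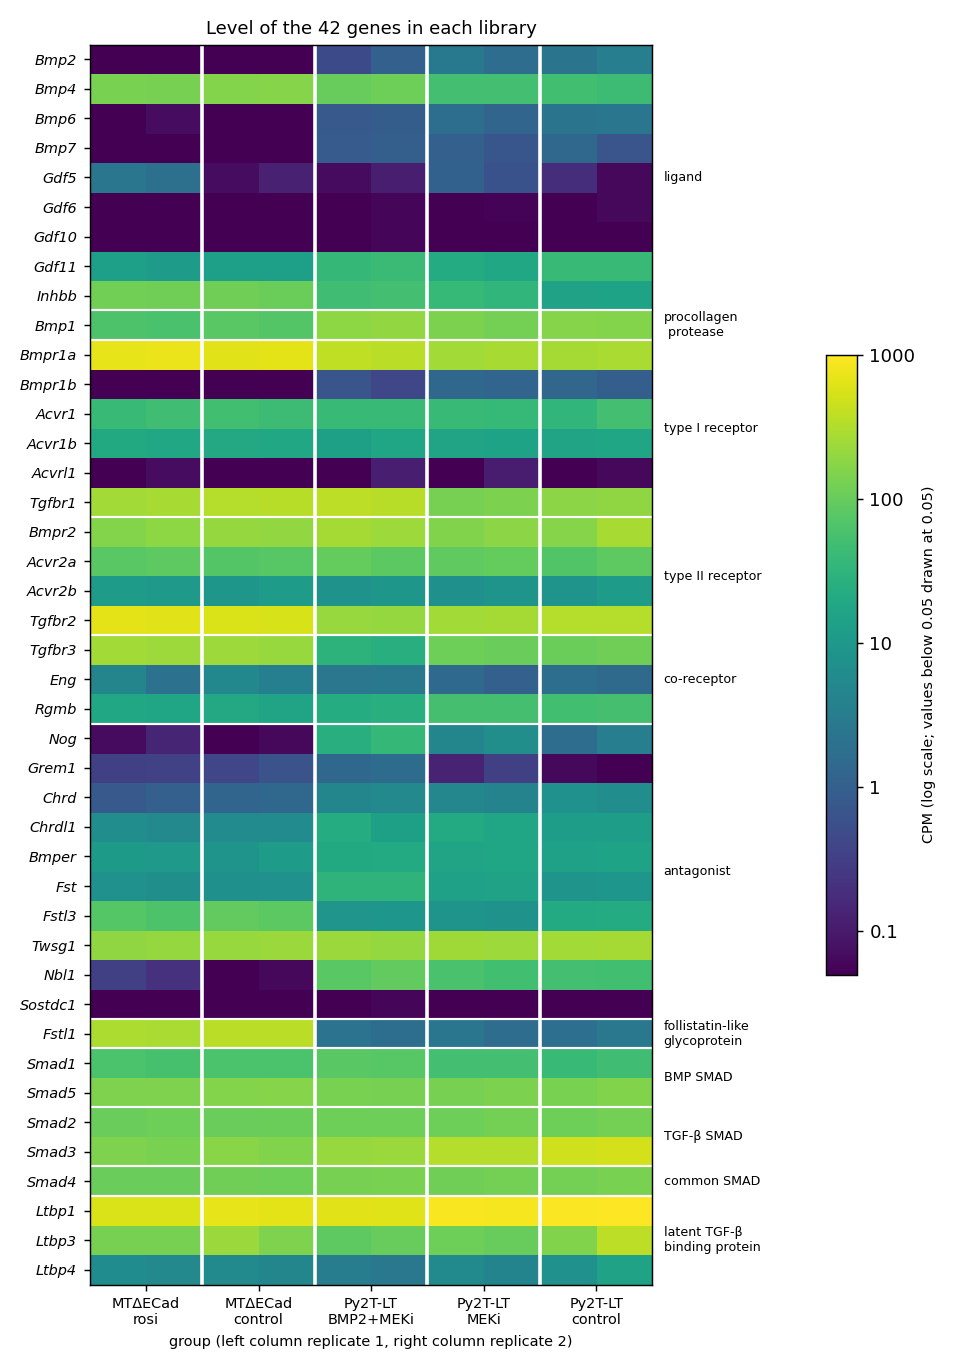
Level of each of the 42 genes (rows, grouped by role) in each of the 10 libraries (columns, 2 per group), as CPM on a log colour scale with values below 0.05 drawn at 0.05. The rows of Bmp2, Bmp6, Bmp7, Bmpr1b, Nog and Nbl1 hold under 0.4 CPM in the MTΔECad columns, whereas the row of Fstl1 holds under 3 CPM in the Py2T-LT columns.

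Per length of exon (CPM per kilobase), the same gene led most roles in both untreated lines. Bmp4, a BMP ligand, was the highest ligand gene at 72.5 ± 3.06 CPM per kilobase in MTΔECad controls and 20.9 ± 1.66 in Py2T-LT controls (SD, n = 2 each). The ligand ranked next was Inhbb, the βB subunit of activin B, at 26.7 ± 1.63 CPM per kilobase in MTΔECad controls, and Gdf11, a ligand of the SMAD2 and SMAD3 branch, at 9.72 ± 0.0428 in Py2T-LT controls. In neither line did the libraries of these neighbours overlap.

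Bmpr1a, the main BMP type I receptor of most cells, led its class at 104 ± 3.70 CPM per kilobase in MTΔECad controls and 42.6 ± 2.11 in Py2T-LT controls, followed by the TGF-β type I receptor gene Tgfbr1 at 51.2 ± 1.09 in MTΔECad controls and 28.3 ± 1.97 in Py2T-LT controls. Tgfbr2, the TGF-β type II receptor, led the type II class at 68.5 ± 1.11 CPM per kilobase in MTΔECad controls and 40.9 ± 0.579 in Py2T-LT controls. The activin receptor gene Acvr2a came next at 12.9 ± 0.656 in MTΔECad controls and 13.6 ± 2.15 in Py2T-LT controls, and in the Py2T-LT controls its libraries overlapped those of Bmpr2, the BMP type II receptor. Per kilobase of the longest transcript Bmpr2 came before Acvr2a in both lines. Among co-receptors Tgfbr3, which encodes betaglycan, was ahead of Rgmb, a BMP co-receptor, with 34.3 ± 2.66 against 2.34 ± 0.267 CPM per kilobase in MTΔECad controls and 17.3 ± 1.35 against 6.67 ± 0.387 in Py2T-LT controls.

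Twsg1, a secreted BMP binding protein, led the antagonists at 42.8 ± 0.50 CPM per kilobase in MTΔECad controls and 50.6 ± 1.79 in Py2T-LT controls. The antagonist next in rank differed between the lines. It was the activin antagonist gene Fstl3 at 36.0 ± 3.17 CPM per kilobase in MTΔECad controls, and Nbl1, a BMP antagonist of the DAN family, at 25.0 ± 0.442 in Py2T-LT controls. Smad3 led the SMADs in Py2T-LT controls at 90.8 ± 4.28 CPM per kilobase with Smad4 next at 35.1 ± 2.42, whereas in MTΔECad controls Smad4 at 30.8 ± 0.950 and Smad3 at 29.4 ± 2.00 overlapped. Ltbp1, a matrix protein that holds latent TGF-β, led its class at 63.2 ± 2.11 CPM per kilobase in MTΔECad controls and 91.2 ± 3.35 in Py2T-LT controls, with Ltbp3 next at 20.3 ± 5.91 in MTΔECad controls and 29.2 ± 17.8 in Py2T-LT controls.

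Treatment of Py2T-LT cells with BMP2 and the MEK inhibitor was set against untreated cells and against the inhibitor alone. By their labels the 2 treated groups differ only in BMP2. If the cultures given BMP2 also held rosiglitazone, its part and that of BMP2 cannot be told apart. Among the 38 tested genes, 12 rose and 10 fell with BMP2 and the inhibitor against Py2T-LT controls, which is 57.9%, where 38.5% of all genes tested changed (19.1% rose and 19.4% fell). Their median log2 fold change was -0.10, against 0 over all genes tested. Against the MEK inhibitor alone, 12 rose and 8 fell, which is 52.6%, where 37.3% of all genes changed (17.9% rose and 19.4% fell), with a median of 0.09 against 0.01 over all genes. Changes of at least 1 on the log2 scale were called for 12 of the 38 against Py2T-LT controls (31.6%, and 13.1% of all genes tested) and for 11 against the inhibitor alone (28.9%, and 11.9% of all). The MEK inhibitor alone raised 5 and lowered 8 of the 38 against Py2T-LT controls, which is 34.2%, where 16.5% of all genes changed (8.98% rose and 7.52% fell), with a median of -0.11 against 0.01, and 5 of the calls were of at least 1 (13.2%, and 3.86% of all genes). Without MEK inhibitor replicate 1 the number that rose with the inhibitor alone was 3, and without MEK inhibitor replicate 2 the number that fell was 5. The summed level of 5 adipocyte markers moved with the same treatments, at 305 to 335 CPM with BMP2 and the inhibitor, 168 to 202 CPM with the inhibitor and 2.64 to 5.87 CPM in Py2T-LT controls, and that of 12 epithelial markers stood at 315 to 338 CPM with BMP2 and the inhibitor, 589 to 675 CPM with the inhibitor and 642 to 693 CPM in Py2T-LT controls. Of the adipocyte markers, Fabp4 averaged 204 CPM with BMP2 and the inhibitor against 104 CPM with the inhibitor. In the same 2 groups Plin1 averaged 32.8 against 16.3 CPM and Cidec 62.6 against 40.5 CPM. Adipoq went the other way, at 21.2 against 24.4 CPM, and Lep had 0 CPM in all Py2T-LT groups. The epithelial markers went both ways. Krt14 averaged 97.5 CPM with BMP2 and the inhibitor, 17.2 CPM with the inhibitor and 10.1 CPM in Py2T-LT controls. Ovol1 averaged 2.86 CPM with BMP2 and the inhibitor against 0.119 CPM with the inhibitor, Krt8 43.0 CPM against 254 CPM and Krt18 157 CPM against 343 CPM in the same 2 groups. The part of either list in these changes was not tested. In bulk libraries, fewer cells of a type and less RNA per cell cannot be told apart.

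**Figure D2:**
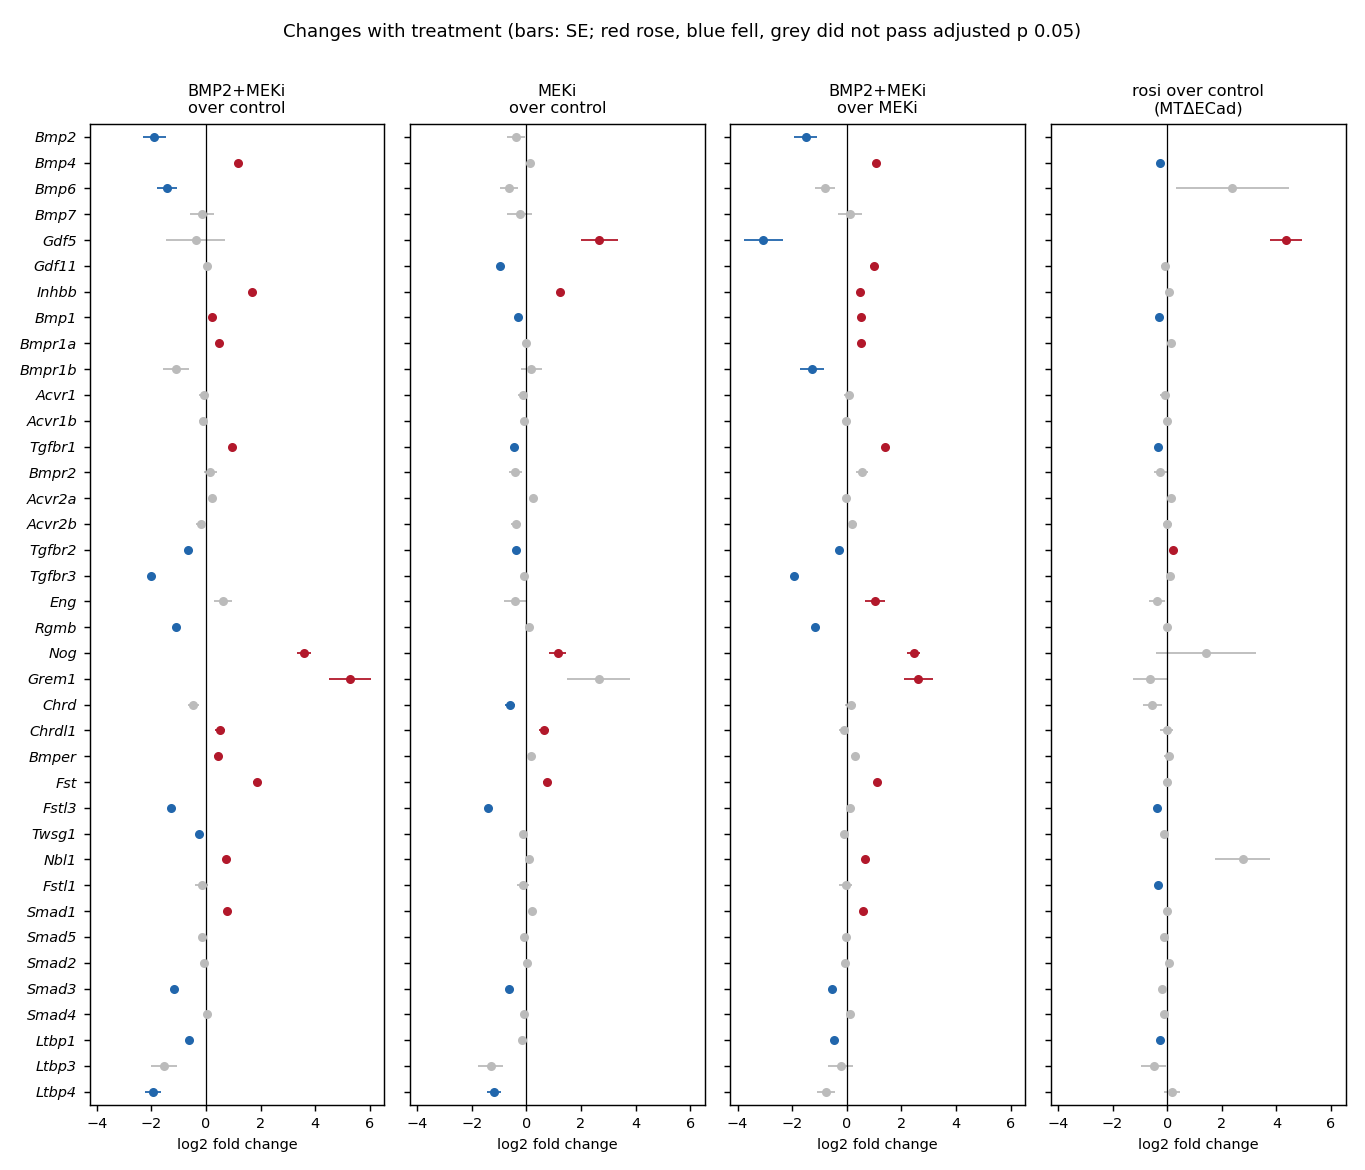
Log2 fold change with its SE for the tested genes (rows) in 4 comparisons (panels): BMP2 plus MEK inhibitor over Py2T-LT control, MEK inhibitor over Py2T-LT control, BMP2 plus MEK inhibitor over MEK inhibitor, and rosiglitazone over MTΔECad control. Red points rose, blue points fell and grey points did not pass; a gene with 0 counts in both groups has no point. Nog, Grem1 and Fst lie to the right where BMP2 was given and Tgfbr3 to the left, and Gdf5 is the far point of the rosiglitazone panel.

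Because 12 genes of the 42 rose together when BMP2 was added to the inhibitor, the letters before their start sites were read. RefSeq start windows on GRCm38.p6, 250 bases before to 50 after the start, were at hand for 29 of the 42 genes (39 windows) and for 9 of these 12. The motifs searched, on both strands, were GGCGCC, a GC-rich motif known for SMAD1 and SMAD5, CAGACA, a SMAD3 and SMAD4 motif, and TGANTCA, the AP-1 motif. GGCGCC was in 33.3% of the 39 windows against 11.9% of all 32807 windows, CAGACA in 15.4% against 21.0%, and TGANTCA in 2.56% against 7.82%. In Ltbp3 the CAGACA and TGANTCA matches overlap. The 39 windows were also richer in G and C, with a median of 67% against 52.7%. GGCGCC was in a window of 4 of the 9 genes that rose (Bmpr1a, Grem1, Nbl1 and Tgfbr1) and in 7 of the other 20 genes. Shown here, to let the motif be seen in place, are the 250 bases before the start of 2 genes that rose with a match, Grem1 (chr2:113758649-113758898, minus strand, match beginning 78 bases before the start) and Tgfbr1 (chr4:47352972-47353221, plus strand, 233 bases before), and of Bmp4 (chr14:46390670-46390919, minus strand), which rose without one. Capitals mark GGCGCC, each sequence runs 5′ to 3′ on the strand of its gene, and a match is a run of letters, not a measured site.
Grem1: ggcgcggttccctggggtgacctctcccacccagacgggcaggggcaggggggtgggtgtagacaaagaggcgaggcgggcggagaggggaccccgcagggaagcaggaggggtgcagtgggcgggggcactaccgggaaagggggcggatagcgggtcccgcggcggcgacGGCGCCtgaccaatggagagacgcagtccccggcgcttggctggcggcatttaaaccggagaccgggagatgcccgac
Tgfbr1: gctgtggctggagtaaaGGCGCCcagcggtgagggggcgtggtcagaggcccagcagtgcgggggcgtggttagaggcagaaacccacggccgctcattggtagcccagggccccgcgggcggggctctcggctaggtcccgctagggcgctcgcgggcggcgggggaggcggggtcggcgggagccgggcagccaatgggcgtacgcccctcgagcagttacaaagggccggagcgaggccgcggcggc
Bmp4: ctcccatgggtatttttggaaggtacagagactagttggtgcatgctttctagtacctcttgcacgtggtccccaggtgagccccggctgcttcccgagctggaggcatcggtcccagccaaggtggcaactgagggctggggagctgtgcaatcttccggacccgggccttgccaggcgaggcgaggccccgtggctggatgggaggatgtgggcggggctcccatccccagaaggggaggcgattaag

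The antagonist genes gave the largest rises with BMP2. Of 9 tested antagonists, 6 rose and 2 fell with BMP2 and the inhibitor against Py2T-LT controls, and 4 rose and 0 fell against the inhibitor alone by edgeR's test (0 fell at an unadjusted p under 0.05 and 0 in DESeq2). These are 88.9% and 44.4% of the 9, where 38.5% and 37.3% of all genes changed, so the second share is near that of all genes. Against the inhibitor alone the rises were Nog, Grem1, Fst and Nbl1. With the inhibitor alone, 3 rose and 2 fell against Py2T-LT controls, which is 55.6%, where 16.5% of all genes changed.

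Nog encodes noggin, a secreted protein that binds BMP2 and BMP4 (NCBI Gene 18121, chr11:89300638-89302559, minus strand, GRCm38). It stood at 26.2 and 36.3 CPM with BMP2 and the inhibitor, at 4.72 and 6.68 CPM with the inhibitor alone, and at 1.72 and 3.50 CPM in Py2T-LT controls. No library of one group overlapped another group. The log2 fold change was 3.58 (SE 0.26; edgeR adjusted p = 1.7e-08) against Py2T-LT controls and 2.45 (SE 0.23; edgeR adjusted p = 3.4e-07) against the inhibitor alone. With the inhibitor alone Nog rose by 1.14 (SE 0.30; edgeR adjusted p = 0.016). That last call was lost without MEK inhibitor replicate 2 (0.85; adjusted p = 0.17) or control replicate 1 (0.71; adjusted p = 0.10). When control replicate 2 was left out, the values against controls were 4.18 for BMP2 plus inhibitor and 1.73 for the inhibitor.

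Grem1, the gene of the BMP antagonist gremlin 1 (NCBI Gene 23892, chr2:113748675-113758648, minus strand), was barely detected in controls. It had 20 and 28 counts (1.34 and 1.63 CPM) with BMP2 and the inhibitor, 2 and 6 counts with the inhibitor alone, and 1 and 0 counts in Py2T-LT controls. The ratio of BMP2 plus inhibitor over Py2T-LT control was 48.2, with a 95% counting interval of 8.24 to 1941 (edgeR adjusted p = 1.1e-05). Over the inhibitor alone the ratio was 6.30, with an interval of 2.95 to 15.4 (edgeR adjusted p = 0.00035). Such intervals cover counting error only. The fitted log2 fold change over Py2T-LT controls ran from 4.43 without control replicate 2 to 7.56 without control replicate 1, and that over the inhibitor alone reached 3.45 without MEK inhibitor replicate 2. The difference between the inhibitor alone and Py2T-LT controls, with a ratio of 7.64 (interval 1.02 to 339), did not pass (edgeR adjusted p = 0.14).

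Fst encodes follistatin, which binds activins and some BMPs (NCBI Gene 14313, chr13:114452262-114458989, minus strand). Its level was 31.6 and 31.5 CPM with BMP2 and the inhibitor, 14.2 and 14.9 CPM with the inhibitor and 8.38 and 8.99 CPM in Py2T-LT controls, a set of 3 steps with no overlap. The log2 fold changes were 1.86 (SE 0.12; edgeR adjusted p = 9.3e-11) for BMP2 plus inhibitor over Py2T-LT control, 0.75 (SE 0.13; edgeR adjusted p = 0.00026) for the inhibitor over Py2T-LT control and 1.11 (SE 0.11; edgeR adjusted p = 9.6e-08) for BMP2 plus inhibitor over inhibitor. Nbl1 was at 78.3 and 91.1 CPM with BMP2 and the inhibitor, at 58.3 and 50 CPM with the inhibitor and at 51.4 and 50.1 CPM in Py2T-LT controls. It rose by 0.74 (SE 0.10) against Py2T-LT controls and by 0.65 (SE 0.10) against the inhibitor, while the inhibitor libraries overlapped the controls. The antagonist genes that were higher with BMP2 thus differed widely in level, from Grem1 at or under 1 count in controls to Nbl1 at 50.1 and 51.4 CPM.

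Fstl3, which encodes a follistatin-like antagonist of activins (NCBI Gene 83554, chr10:79777274-79782630, plus strand), went the other way. It stood at 8.63 and 9.24 CPM with BMP2 and the inhibitor, 8.27 and 8.10 CPM with the inhibitor and 21.5 and 21.8 CPM in Py2T-LT controls. It fell by 1.27 (SE 0.12; edgeR adjusted p = 2.9e-08) and by 1.40 (SE 0.12; edgeR adjusted p = 4.7e-08) on the log2 scale in those treatments. The difference of BMP2 plus inhibitor over the inhibitor was 0.13 (SE 0.14; edgeR adjusted p = 0.50). Fstl3 shares exon sequence with Prss57 on the opposite strand, and whether counting used the strand is not given in the sources used here.

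The remaining antagonists moved less. Chrdl1, Bmper and Twsg1 changed by 0.52, 0.45 and -0.26 with BMP2 and the inhibitor against Py2T-LT controls. Each of these 3 calls was lost without at least 1 library. The adjusted p of Chrdl1 was 0.61 without BMP2 plus inhibitor replicate 1, 0.052 without control replicate 1 0.10 without control replicate 2, 0.060 in DESeq2 and 0.096 with only the compared groups. That of Bmper was 0.071 without BMP2 plus inhibitor replicate 2 and 0.073 without control replicate 1, and that of Twsg1 was 0.11 without BMP2 plus inhibitor replicate 2 and 0.064 without control replicate 2. Chrd, the gene of chordin, fell by 0.61 with the inhibitor alone (edgeR adjusted p = 0.032), a call lost without MEK inhibitor replicate 1 or 2 (0.074 and 0.22) or control replicate 1 (0.19) and in DESeq2 (0.24). Chrdl1 rose by 0.63 with the inhibitor alone (edgeR adjusted p = 0.022), a call lost without MEK inhibitor replicate 1 (0.19) or control replicate 2 (0.095).

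**Figure D3:**
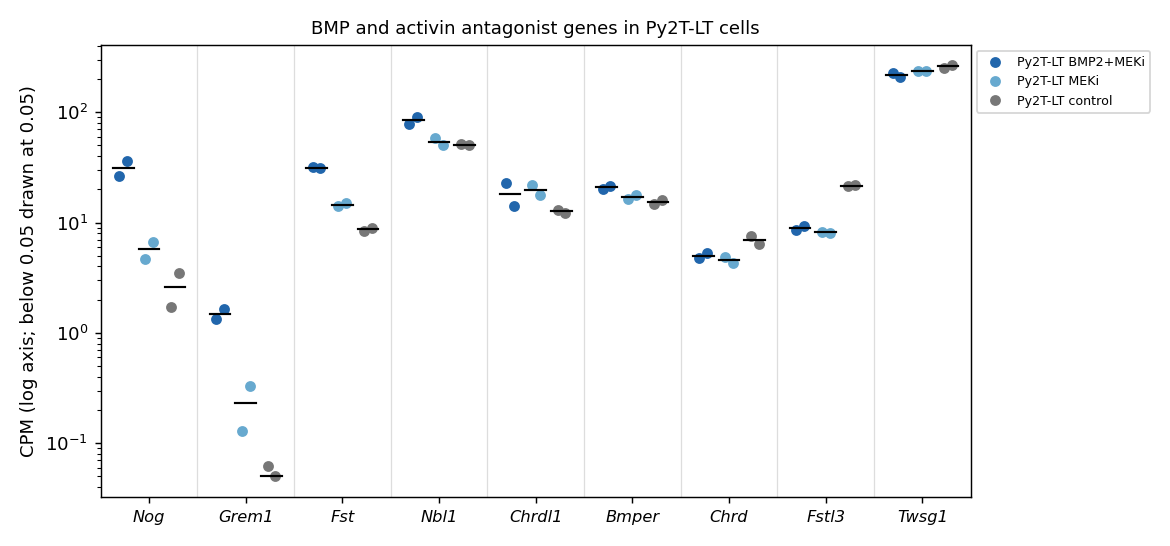
CPM on a log axis of the 9 tested antagonist genes in each Py2T-LT library; points are libraries, bars are group means, and values below 0.05 are drawn at 0.05. Nog, Grem1 and Fst step down without overlap between BMP2 plus MEK inhibitor, MEK inhibitor and control, and Fstl3 is low in both treated groups.

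The ligand genes split in both directions. Of 7 tested ligands, 2 rose and 2 fell with BMP2 and the inhibitor against Py2T-LT controls, while 3 rose and 2 fell against the inhibitor alone. These are 57.1% and 71.4% of the 7, where 38.5% and 37.3% of all genes changed. Bmp4 (NCBI Gene 12159, chr14:46383525-46390669, minus strand) stood at 101 and 113 CPM with BMP2 and the inhibitor, at 51.0 and 51.0 CPM with the inhibitor and at 49.7 and 44.4 CPM in Py2T-LT controls. The BMP2 libraries were above all others. Bmp4 rose by 1.19 (SE 0.09; edgeR adjusted p = 3.3e-10) against Py2T-LT controls and by 1.07 (SE 0.08; edgeR adjusted p = 1.6e-09) against the inhibitor, and the inhibitor alone gave 0.12 (SE 0.09; edgeR adjusted p = 0.43).

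The cells' own Bmp2 transcript was lower where BMP2 protein was added. It had 0.469 and 1.05 CPM with BMP2 and the inhibitor, 2.78 and 1.70 CPM with the inhibitor and 2.28 and 3.50 CPM in Py2T-LT controls. It fell by 1.89 (SE 0.41; edgeR adjusted p = 0.0011) against Py2T-LT controls and fell by 1.5 (SE 0.42; edgeR adjusted p = 0.0089) against the inhibitor. Without BMP2 plus inhibitor replicate 2 these values were -2.60 and -2.22. The call against the inhibitor was lost without BMP2 plus inhibitor replicate 1 (-1.08; adjusted p = 0.11), without MEK inhibitor replicate 1 (-1.12; adjusted p = 0.11) and in DESeq2 (adjusted p = 0.057). Bmp6, another BMP ligand, fell by 1.43 (SE 0.36; edgeR adjusted p = 0.0033) against Py2T-LT controls, with 0.803 and 0.930 CPM with BMP2 and the inhibitor against 2.28 and 2.44 CPM in controls, a call that DESeq2 did not make (adjusted p = 0.072).

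Inhbb (NCBI Gene 16324, chr1:119415463-119422248, minus strand) rose with the inhibitor and further with BMP2. Its level was 48.0 and 52.1 CPM with BMP2 and the inhibitor, 38.2 and 34.1 CPM with the inhibitor and 15.2 and 15.7 CPM in Py2T-LT controls. The log2 fold changes were 1.70 (SE 0.10), 1.22 (SE 0.10) and, for BMP2 plus inhibitor over inhibitor, 0.47 (SE 0.09; edgeR adjusted p = 0.00029). Gdf11 moved in opposite directions in the 2 steps. It was at 36.5 and 43.4 CPM with BMP2 and the inhibitor, at 22.2 and 18.5 CPM with the inhibitor and at 39.4 and 39.6 CPM in Py2T-LT controls. It fell by 0.96 (SE 0.12; edgeR adjusted p = 3.7e-06) with the inhibitor, rose by 0.98 (SE 0.12; edgeR adjusted p = 6.4e-07) with BMP2 over the inhibitor, and gave 0.02 (SE 0.11; edgeR adjusted p = 0.91) for BMP2 plus inhibitor over Py2T-LT control.

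Gdf5, a BMP family ligand known from joint formation, showed the same pair of steps with reversed sign at much lower levels. It had 1 and 2 counts with BMP2 and the inhibitor, 17 and 11 counts with the inhibitor and 3 and 1 counts in Py2T-LT controls. The ratio of inhibitor over Py2T-LT control was 6.69, with a 95% counting interval of 2.34 to 26.2 (edgeR adjusted p = 0.0074), and the ratio of BMP2 plus inhibitor over inhibitor was 0.112, with an interval of 0.0219 to 0.364 (edgeR adjusted p = 0.0018). The first call was lost without MEK inhibitor replicate 1 (adjusted p = 0.10), without control replicate 2 (0.11) and in DESeq2 (0.051), and its log2 fold change was 3.58 without control replicate 1. Bmp7 stayed between 0.687 and 1.35 CPM in the 6 Py2T-LT libraries and passed in none of their comparisons.

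Bmp1, a protease that trims procollagens and cleaves chordin, is no ligand of the family despite its name. It stood at 187 and 199 CPM with BMP2 and the inhibitor, 144 and 126 CPM with the inhibitor and 168 and 162 CPM in Py2T-LT controls. It rose by 0.52 (SE 0.08; edgeR adjusted p = 3.5e-05) with BMP2 over the inhibitor. Its changes against Py2T-LT controls were 0.23 (edgeR adjusted p = 0.035) and, for the inhibitor, -0.29 (edgeR adjusted p = 0.018). The 0.23 was lost without any 1 of its 4 libraries (adjusted p = 0.062 and 0.19 without BMP2 plus inhibitor replicates 1 and 2, 0.058 and 0.14 without control replicates 1 and 2) and in DESeq2 (0.051), and the -0.29 without MEK inhibitor replicate 2 (0.25) or control replicate 1 (0.079).

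Among the receptors, Tgfbr3 fell the most and Tgfbr1 rose the most. Tgfbr3 (NCBI Gene 21814, chr5:107106567-107289629, minus strand), whose product presents TGF-β to its receptors, stood at 29.9 and 25.9 CPM with BMP2 and the inhibitor, 111 and 105 CPM with the inhibitor and 107 and 119 CPM in Py2T-LT controls. It fell by 2.02 (SE 0.09; edgeR adjusted p = 4.9e-13) against Py2T-LT controls and by 1.95 (SE 0.09; edgeR adjusted p = 1.1e-12) against the inhibitor, whose own difference from controls was -0.07 (SE 0.09; edgeR adjusted p = 0.67). Rgmb followed the same pattern, with 23.1 and 25.1 CPM with BMP2 and the inhibitor, 53.7 and 54.4 CPM with the inhibitor and 49.0 and 53.2 CPM in Py2T-LT controls. It fell by 1.08 (SE 0.10; edgeR adjusted p = 2.3e-08) and 1.16 (SE 0.10; edgeR adjusted p = 7.5e-09) in these comparisons. Tgfbr3 and Rgmb were thus lower with BMP2 and the inhibitor in both comparisons.

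Eng, the gene of endoglin, was scarce, at 2.54 and 2.62 CPM with BMP2 and the inhibitor against 1.49 and 1.04 CPM with the inhibitor. Its rise of 1.04 (SE 0.36; edgeR adjusted p = 0.028) was lost without BMP2 plus inhibitor replicate 1 (0.089) or 2 (0.11), without MEK inhibitor replicate 2 (0.20) and in DESeq2 (0.079). Eng also shares exon sequence with Fpgs on the opposite strand.

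Tgfbr1 (NCBI Gene 21812, chr4:47353222-47414926, plus strand) stood at 374 and 345 CPM with BMP2 and the inhibitor, 129 and 144 CPM with the inhibitor and 176 and 194 CPM in Py2T-LT controls. It fell with the inhibitor by 0.44 (SE 0.08; edgeR adjusted p = 0.00059) and rose with BMP2 by 1.40 (SE 0.08; edgeR adjusted p = 1.8e-11) over the inhibitor and by 0.96 (SE 0.08; edgeR adjusted p = 4.1e-09) over Py2T-LT controls. Its partner Tgfbr2 was instead stepwise lower, at 213 and 210 CPM with BMP2 and the inhibitor, 254 and 264 CPM with the inhibitor and 332 and 338 CPM in Py2T-LT controls. Tgfbr2 fell by 0.66 (SE 0.07; edgeR adjusted p = 1.0e-07) and 0.37 (SE 0.07; edgeR adjusted p = 0.00049) against Py2T-LT controls and by 0.29 (SE 0.07; edgeR adjusted p = 0.0021) between the treatments. The TGF-β type I and type II receptor genes thus moved in opposite directions when BMP2 was added.

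On the BMP side, Bmpr1a (NCBI Gene 12166, chr14:34411061-34503336, minus strand) was at 394 and 362 CPM with BMP2 and the inhibitor, 257 and 274 CPM with the inhibitor and 261 and 280 CPM in Py2T-LT controls. It rose by 0.48 (SE 0.08; edgeR adjusted p = 2.3e-05) against Py2T-LT controls and by 0.51 (SE 0.08; edgeR adjusted p = 1.4e-05) against the inhibitor. Bmpr1b, the other BMP type I receptor, was near 1 CPM, with 0.669 and 0.407 CPM with BMP2 and the inhibitor, 1.36 and 1.26 CPM with the inhibitor and 1.29 and 0.999 CPM in Py2T-LT controls. Its fall of 1.29 (SE 0.44; edgeR adjusted p = 0.029) against the inhibitor was lost without BMP2 plus inhibitor replicate 2 (0.22), without MEK inhibitor replicate 1 (0.11) or 2 (0.088) and in DESeq2 (0.26), and against Py2T-LT controls it had adjusted p = 0.066. Acvr1, Acvr1b, Acvr2a and Acvr2b passed in none of the 5 comparisons.

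Bmpr2 passed in none either, but its controls disagreed: it had 261 and 233 CPM with BMP2 and the inhibitor, 156 and 179 CPM with the inhibitor, and 168 and 274 CPM in Py2T-LT control replicates 1 and 2. Against Py2T-LT controls the value for BMP2 plus inhibitor was 0.16 (SE 0.23; edgeR adjusted p = 0.62). It was 0.56 (adjusted p = 0.00017) without control replicate 2 and -0.15 without control replicate 1. The inhibitor alone gave -0.40 (edgeR adjusted p = 0.34), and -0.71 without control replicate 1. Without the filter on low counts the -0.40 passed (edgeR adjusted p = 4.4e-05) with an SE of 0.08. An SE that small does not reflect the gap between the 2 controls. BMP2 plus inhibitor over inhibitor, which uses no control library, gave 0.56 (SE 0.23; edgeR adjusted p = 0.11), and 0.55 (adjusted p = 6.1e-10) when only those 2 groups were fitted, where the controls did not enter the estimate of the spread.

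Of the 5 SMAD genes, Smad1 rose and Smad3 fell with BMP2 and the inhibitor in both comparisons, which is 40.0%, near the 38.5% and 37.3% of all genes that changed. Smad1 was at 78.8 and 75.6 CPM with BMP2 and the inhibitor, 52.3 and 51.1 CPM with the inhibitor and 41.9 and 47.8 CPM in Py2T-LT controls, and it rose by 0.78 (SE 0.09; edgeR adjusted p = 3.0e-07) against Py2T-LT controls and by 0.58 (SE 0.09; edgeR adjusted p = 1.6e-05) against the inhibitor. Smad3 (NCBI Gene 17127, chr9:63646766-63757994, minus strand) was at 215 and 228 CPM with BMP2 and the inhibitor, 327 and 328 CPM with the inhibitor and 486 and 520 CPM in Py2T-LT controls. Smad3 fell by 1.18 (SE 0.08; edgeR adjusted p = 7.3e-11) with BMP2 and the inhibitor, by 0.62 (SE 0.08; edgeR adjusted p = 4.5e-06) with the inhibitor and by 0.56 (SE 0.08; edgeR adjusted p = 4.3e-06) between the treatments. The 3 groups of Smad3 did not overlap. Smad2, Smad4 and Smad5 lay between 112 and 153 CPM in all 6 Py2T-LT libraries and passed in no Py2T-LT comparison.

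The latent TGF-β binding proteins were lower with treatment where they passed. Ltbp1 was at 648 and 620 CPM with BMP2 and the inhibitor, 897 and 865 CPM with the inhibitor and 950 and 1000 CPM in Py2T-LT controls. It fell by 0.62 (SE 0.07; edgeR adjusted p = 3.1e-07) against Py2T-LT controls and by 0.47 (SE 0.07; edgeR adjusted p = 1.2e-05) against the inhibitor. The differences of Ltbp3 from Py2T-LT controls, and that of Ltbp4 with the inhibitor alone, were smaller without control replicate 2.

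Ltbp4 had 3.21 and 2.62 CPM with BMP2 and the inhibitor, 5.43 and 4.44 CPM with the inhibitor, and 7.51 and 15 CPM in Py2T-LT control replicates 1 and 2. It fell by 1.95 (SE 0.29; edgeR adjusted p = 7.3e-05) with BMP2 and the inhibitor and by 1.19 (SE 0.27; edgeR adjusted p = 0.0058) with the inhibitor. The second call was lost without control replicate 2 (-0.62; adjusted p = 0.098), without MEK inhibitor replicate 2 (-1.05; adjusted p = 0.097) and when only those 2 groups were fitted (adjusted p = 0.15). Over the inhibitor, BMP2 plus inhibitor gave -0.76 (SE 0.32; edgeR adjusted p = 0.082), which passed without the filter on low counts (adjusted p = 0.0024) and with only those 2 groups, which hold no control library (adjusted p = 0.0049). Ltbp3 had 84.1 and 98.5 CPM with BMP2 and the inhibitor, 112 and 101 CPM with the inhibitor, and 151 and 380 CPM in control replicates 1 and 2. Its difference of -1.54 (SE 0.47) for BMP2 plus inhibitor over Py2T-LT control missed the threshold (edgeR adjusted p = 0.054). That difference passed at -0.72 without control replicate 2 (adjusted p = 0.031), at -2.06 without control replicate 1 (adjusted p = 6.4e-05) and in DESeq2 (adjusted p = 0.0029), but not with only the compared groups (adjusted p = 0.23). The inhibitor alone gave -1.31 (SE 0.47; edgeR adjusted p = 0.14), which passed at -1.83 without control replicate 1 (adjusted p = 0.00037) and in DESeq2 (adjusted p = 0.029) and was -0.50 without control replicate 2. Without the filter on low counts both differences of Ltbp3 also passed, with an SE of 0.09 in place of 0.47. An SE that small does not reflect the gap between the 2 controls, at 151 and 380 CPM.

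Rosiglitazone in MTΔECad cells changed fewer of these genes. Of 38 tested, 2 rose and 6 fell against MTΔECad controls, which is 21.1%, where 13.2% of all genes changed (7.95% rose and 5.26% fell), with a median log2 fold change of -0.01 against -0.02 over all genes. Without 1 library the number that changed was 2 to 6, lowest without rosiglitazone replicate 2 or control replicate 1, and 1 gene rose in each case. The 5 adipocyte markers summed to 1579 to 1767 CPM with rosiglitazone and 22.5 to 25.9 CPM in MTΔECad controls, the 12 epithelial markers to 417 to 463 CPM with rosiglitazone and 282 to 294 CPM in controls, and the 10 mesenchymal markers to 11434 to 11996 CPM with rosiglitazone and 15019 to 17789 CPM in controls. Krt14 averaged 62.9 CPM with rosiglitazone and 9.36 CPM in controls. The adipocyte marker Lep went against its sum, at 5.55 CPM with rosiglitazone and 6.64 CPM in controls. Of the mesenchymal markers, Fn1 averaged 4687 CPM with rosiglitazone and 8609 CPM in controls. Twist1, Snai2 and Col1a1 had higher means with rosiglitazone, at 50.3, 7.18 and 4.50 CPM against 47.8, 6.61 and 3.55 CPM in controls. The other mesenchymal means were lower with rosiglitazone. The part of these marker changes was not tested.

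Gdf5 was the 1 gene of the 38 called with a log2 fold change of at least 1, where 3.11% of all genes were. It had 37 and 28 counts (2.43 and 1.92 CPM) with rosiglitazone and 1 and 2 counts (0.0696 and 0.125 CPM) in MTΔECad controls, a ratio of 22.1 (95% counting interval 7.22 to 110) (edgeR adjusted p = 1.6e-05). Gdf5 was thus above its untreated level both with rosiglitazone in MTΔECad cells and with the MEK inhibitor in Py2T-LT cells, and the difference between these 2 changes was not tested. Tgfbr2 rose by 0.22 (edgeR adjusted p = 0.038), with 663 and 639 CPM with rosiglitazone against 567 and 554 CPM in MTΔECad controls. That call was lost without any 1 of the 4 libraries (adjusted p = 0.24 and 0.085 without rosiglitazone replicates 1 and 2, 0.14 and 0.21 without control replicates 1 and 2) and without the filter on low counts (0.056).

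The 6 that fell did so by 0.26 to 0.37 on the log2 scale. Tgfbr1 fell by 0.35 (SE 0.08; edgeR adjusted p = 0.0045), with 252 and 275 CPM with rosiglitazone against 330 and 340 CPM in MTΔECad controls. Fstl3 fell by 0.37 (adjusted p = 0.0098), Fstl1, the gene of a secreted follistatin-like glycoprotein, by 0.33 (0.0086), Bmp1 by 0.31 (0.019), Bmp4 by 0.26 (0.035) and Ltbp1 by 0.26 (0.014), all by edgeR. Each of the 6 calls was lost without at least 1 library. Tgfbr1 was lost without rosiglitazone replicate 1 (0.073). Fstl3 (0.18 and 0.19), Fstl1 (0.055 and 0.075) and Bmp1 (0.18 and 0.21) were lost without rosiglitazone replicate 2 and without control replicate 1. Ltbp1 was lost without rosiglitazone replicate 1 (0.067) or 2 (0.095) or control replicate 1 (0.16), and Bmp4 without rosiglitazone replicate 1 (0.086) or 2 (0.19), control replicate 1 (0.077) or 2 (0.25) and in DESeq2 (0.053).

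With rosiglitazone 0 of 5 SMADs and 0 of 3 co-receptors passed edgeR's test, where 13.2% of all genes tested changed. Lists this short cannot show that they changed less often than other genes. In DESeq2 0 of either passed. At an unadjusted p under 0.05 the SMAD count was 1, Smad3 at -0.18 (edgeR adjusted p = 0.15), and the co-receptor count was 0. Inhbb stood at 123 and 116 CPM with rosiglitazone against 118 and 109 CPM in MTΔECad controls, a difference of 0.07 (edgeR adjusted p = 0.69). Bmpr1a stood at 703 and 750 CPM with rosiglitazone against 644 and 677 CPM in MTΔECad controls, a difference of 0.14 (edgeR adjusted p = 0.29). Nbl1 had 5 and 3 counts with rosiglitazone against 0 and 1 in MTΔECad controls, a ratio of 8.15 with an interval of 1.09 to 362 that did not pass (edgeR adjusted p = 0.084).

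More of these genes differed between the untreated lines than with any treatment. In MTΔECad controls against Py2T-LT controls, 11 of the 38 tested genes were higher and 17 lower, which is 73.7%, where 61.0% of all genes differed (29.3% higher and 31.7% lower). Of the 38, 20 passed with a log2 fold change of at least 1 in either direction, which is 52.6%, against 24.5% of all genes tested. The median of the 38 was -0.22, against -0.03 over all genes.

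Fstl1 (NCBI Gene 14314, chr16:37777055-37836516, plus strand) was the gene most in favour of MTΔECad. It stood at 364 and 357 CPM in MTΔECad controls and at 1.85 and 2.62 CPM in Py2T-LT controls, a log2 fold change of 7.33 (SE 0.13; edgeR adjusted p = 2.2e-20). Fstl3 was also higher in MTΔECad controls, at 93.4 and 82.5 CPM against 21.5 and 21.8 CPM in Py2T-LT controls, by 2.02 (SE 0.10; edgeR adjusted p = 3.9e-13). Nbl1 (NCBI Gene 17965, chr4:139082291-139093126, minus strand) went the other way, with 0 and 1 counts in MTΔECad controls against 834 and 802 counts in Py2T-LT controls, a ratio of 0.000649 (95% counting interval 1.64e-05 to 0.00362) (edgeR adjusted p = 2.9e-17). Nog had 0 and 1 counts in MTΔECad controls against 28 and 56 in Py2T-LT controls, a ratio of 0.0126 with an interval of 0.000316 to 0.0724 (edgeR adjusted p = 1.7e-05). The fitted log2 fold change of Nbl1 was -9.49 without MTΔECad control replicate 1 and -12.65 without replicate 2, and that of Nog -5.21 and -8.37 without the same libraries and -5.41 without Py2T-LT control replicate 2.

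Of the 9 tested antagonists, 6 were lower in MTΔECad controls and 2, Grem1 and Fstl3, were higher. These are 88.9% of the 9, where 61.0% of all genes differed (29.3% higher and 31.7% lower). Grem1 had 6 and 10 counts in MTΔECad controls against 1 and 0 counts in Py2T-LT controls, a ratio of 17 with an interval of 2.64 to 713 (edgeR adjusted p = 0.0025), and its fitted log2 fold change was 6.08 without Py2T-LT control replicate 1 and 2.94 without replicate 2. Chrd was lower by 2.39 (SE 0.24; edgeR adjusted p = 2.6e-08), with 1.25 and 1.38 CPM in MTΔECad controls against 7.51 and 6.37 CPM in Py2T-LT controls, though it shares exon sequence with Thpo on the opposite strand. Chrdl1 was lower by 1.08 (SE 0.21; edgeR adjusted p = 0.00024). Smaller differences of -0.57 in Bmper and -0.24 in Twsg1 passed too, but Bmper was lost without MTΔECad control replicate 1 (0.064) and Twsg1 without Py2T-LT control replicate 2 (0.061) or MTΔECad control replicate 1 (0.052). Fst stood at 7.17 and 7.51 CPM in MTΔECad controls against 8.38 and 8.99 CPM in Py2T-LT controls, a difference of -0.24 (edgeR adjusted p = 0.15).

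The ligand genes Bmp2, Bmp6 and Bmp7 had 0 counts in both MTΔECad control libraries. With 3 counts per library as the floor, Bmp2 was at least 14.6-fold lower, Bmp6 at least 11.9-fold lower and Bmp7 at least 5.15-fold lower than in Py2T-LT controls. The receptor gene Bmpr1b was likewise at 0 counts and at least 5.78-fold lower. Each of the 4 was below 4 CPM in Py2T-LT controls. Bmp6 shares exon sequence with Txndc5 on the opposite strand.

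MTΔECad controls held more of the abundant ligands Bmp4 and Inhbb. Bmp4 stood at 158 and 168 CPM in MTΔECad controls against 49.7 and 44.4 CPM in Py2T-LT controls, a log2 fold change of 1.79 (SE 0.09; edgeR adjusted p = 1.3e-13). Inhbb stood at 118 and 109 CPM in MTΔECad controls against 15.2 and 15.7 CPM in Py2T-LT controls, higher by 2.88 (SE 0.10; edgeR adjusted p = 5.3e-16). Gdf11 was lower by 1.56 (SE 0.12; edgeR adjusted p = 5.3e-10), with 13.3 and 13.5 CPM in MTΔECad controls against 39.4 and 39.6 CPM in Py2T-LT controls, and Bmp1 was lower by 1.14 (SE 0.09; edgeR adjusted p = 2.5e-10). For Gdf5, with 1 and 2 counts in MTΔECad controls against 3 and 1 in Py2T-LT controls, the ratio of 0.797 had an interval of 0.117 to 4.71.

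Of 5 tested type I receptors, 2 were higher and 1 (Bmpr1b) lower in MTΔECad controls, which is 60.0% where 61.0% of all genes differed, and of 4 type II receptors 1 was higher. Of 3 co-receptors 2 were higher and 1 was lower. Bmpr1a stood at 644 and 677 CPM in MTΔECad controls against 261 and 280 CPM in Py2T-LT controls, by 1.29 (SE 0.08; edgeR adjusted p = 4.9e-12). Tgfbr1 was higher by 0.86 (SE 0.08; edgeR adjusted p = 9.5e-09), with 330 and 340 CPM in MTΔECad controls against 176 and 194 CPM in Py2T-LT controls. Tgfbr2 was higher by 0.74 (SE 0.07; edgeR adjusted p = 6.9e-09) and Tgfbr3 by 0.99 (SE 0.09; edgeR adjusted p = 2.5e-09), the second with 237 and 213 CPM in MTΔECad controls against 107 and 119 CPM in Py2T-LT controls. Eng was higher by 1.35 (SE 0.32; edgeR adjusted p = 0.0012), with 5.01 and 3.57 CPM in MTΔECad controls against 1.79 and 1.56 CPM in Py2T-LT controls. Rgmb was the co-receptor that was lower, at 19.4 and 16.5 CPM in MTΔECad controls against 49.0 and 53.2 CPM in Py2T-LT controls, by 1.51 (SE 0.11; edgeR adjusted p = 7.9e-11). Bmpr2 gave -0.11 (edgeR adjusted p = 0.71), and -0.42 (adjusted p = 0.0012) without Py2T-LT control replicate 1 or 0.29 (adjusted p = 0.023) without replicate 2.

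**Figure D4:**
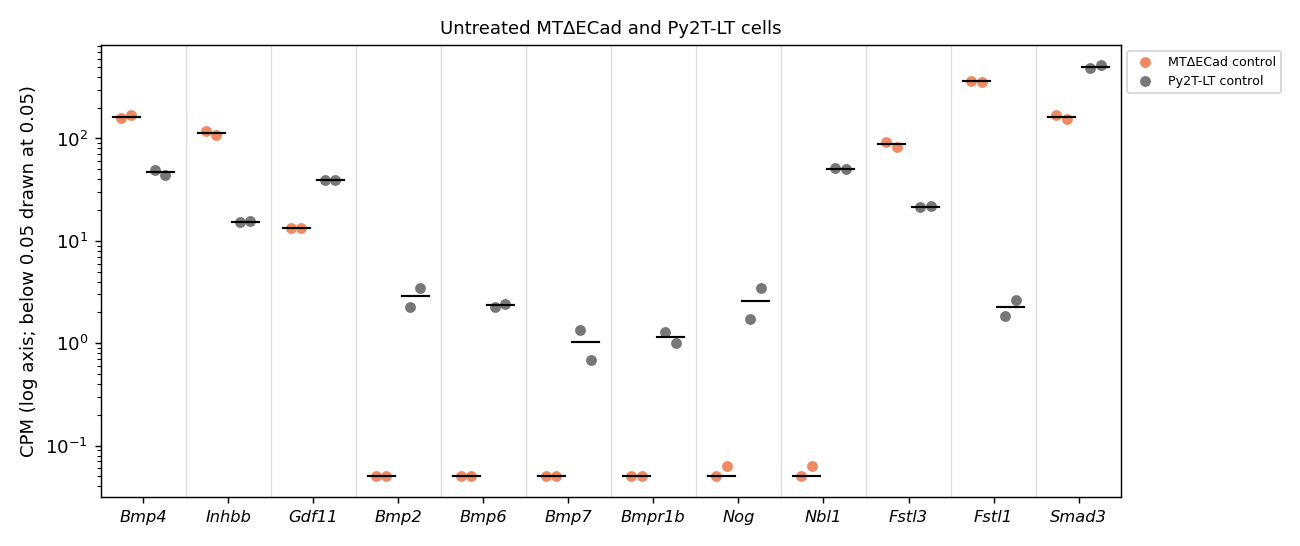
CPM on a log axis of 12 genes in the untreated libraries of each line; points are libraries, bars are group means, and values below 0.05 are drawn at 0.05. Fstl1 is at 364 and 357 CPM in MTΔECad controls and under 3 CPM in Py2T-LT controls, whereas Bmp2, Bmp6, Bmp7 and Bmpr1b lie at the bottom of the axis in MTΔECad controls.

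Smad3 was the SMAD gene that differed most between the lines, at 171 and 155 CPM in MTΔECad controls against 486 and 520 CPM in Py2T-LT controls. It was lower by 1.63 (SE 0.08; edgeR adjusted p = 1.6e-13), and Smad1 was higher by 0.42 (SE 0.09; edgeR adjusted p = 0.00033). The difference of -0.19 in Smad4 (edgeR adjusted p = 0.042) was lost without Py2T-LT control replicate 2 (0.30), without MTΔECad control replicate 1 (0.076) or 2 (0.21), without the filter on low counts (0.064), with only the compared groups (0.052) and in DESeq2 (0.070). Ltbp1 was lower by 0.53 (SE 0.07; edgeR adjusted p = 1.3e-06). Ltbp4 was lower by 1.11 (edgeR adjusted p = 0.0024), a value that became -0.53 (adjusted p = 0.058) without Py2T-LT control replicate 2 and was not called with only the compared groups (0.10).

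Over the 5 comparisons, 30 of the 42 genes, of which 38 were tested, passed in at least 1. Bmp1, Tgfbr1 and Tgfbr2 passed in all 5, though each lost a call in at least 1 comparison when a library was left out. The share of all genes was not computed for either count or for the 12 named next, so these counts have no background here. The 12 that passed in none were Gdf6, Gdf10, Acvr1, Acvr1b, Acvrl1, Bmpr2, Acvr2a, Acvr2b, Sostdc1, Smad5, Smad2 and Ltbp3. They include the 4 not tested, every activin type II receptor of the list and both type I receptors Acvr1 and Acvr1b.

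Other genes of the pathway gave a background for these changes. Of 65 with a row, 47 were tested. Of these 28 rose and 8 fell with BMP2 and the inhibitor against Py2T-LT controls, 9 rose and 9 fell with the inhibitor, 27 rose and 7 fell with BMP2 over the inhibitor, 4 rose and 1 fell with rosiglitazone, and 16 were higher and 18 lower in MTΔECad controls. In the same order these are 76.6%, 38.3%, 72.3%, 10.6% and 72.3% of the 47, where 38.5%, 16.5%, 37.3%, 13.2% and 61.0% of all genes changed. The 10 genes listed as BMP read-outs all rose with BMP2 and the inhibitor, both against Py2T-LT controls and against the inhibitor alone, and 3 rose with the inhibitor alone. With rosiglitazone 1 of the 10 fell. These lists were chosen with earlier results of these data known. Their counts are therefore a description and no independent test of BMP activity.

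Id1, a direct target of BMP SMADs, was at 144 and 152 CPM with BMP2 and the inhibitor, 55.5 and 48.2 CPM with the inhibitor and 43.7 and 36.8 CPM in Py2T-LT controls, and it rose by 1.87 (SE 0.12) against controls and 1.51 (SE 0.12) against the inhibitor. The inhibitory SMAD genes rose as well, Smad6 by 3.26 (SE 0.14) and 2.68 (SE 0.13) and Smad7 by 1.40 (SE 0.11) and 1.69 (SE 0.11) in the same comparisons. With the inhibitor alone Smad6 rose by 0.58 (edgeR adjusted p = 0.0086), a call lost without MEK inhibitor replicate 1 (0.099) or control replicate 2 (0.13). Id1 gave 0.36 (edgeR adjusted p = 0.057), which passed without control replicate 1 (0.015), with only the compared groups (0.035) and without the filter on low counts (0.0024), and Smad7 gave -0.28 (edgeR adjusted p = 0.096), which passed without control replicate 1 (0.017) and without the filter (0.019). With rosiglitazone Id1 gave -0.04 (edgeR adjusted p = 0.92), Smad6 0.16 (0.55) and Smad7 -0.25 (0.15), of which Smad7 passed without the filter on low counts (0.049). In MTΔECad controls against Py2T-LT controls, Smad6 was higher by 0.64 and Smad7 by 0.59, and Id1 gave 0.06 (edgeR adjusted p = 0.71).

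The other pathway genes that changed with BMP2 and the inhibitor included secreted proteins and transcription factors. Tll2, a protease related to Bmp1, had 15.6 and 13.4 CPM with BMP2 and the inhibitor against 0.0616 and 0.187 CPM in Py2T-LT controls, a ratio of 116 (95% counting interval 45.1 to 429). Dcn, the gene of the TGF-β binding proteoglycan decorin, fell to 1.87 and 1.92 CPM against 43.3 and 45.5 CPM in Py2T-LT controls, and by 4.54 (SE 0.18). Lrrc32, which anchors latent TGF-β at the cell surface, fell by 4.53 (SE 0.36) against Py2T-LT controls and fell by 3.32 (SE 0.41) against the inhibitor. The BMP read-out genes Hey1 and Dlx5 rose by 4.24 (SE 0.16) and by a ratio of 30.6 with an interval of 8.11 to 258. Ltbp2 was at 524 and 595 CPM with BMP2 and the inhibitor against 56.9 and 53.5 CPM with the inhibitor, and it rose by 3.34 (SE 0.19), so that it and Ltbp1 moved in opposite directions. Bmp3 fell to a ratio of 0.0408 (interval 0.0109 to 0.108) against the inhibitor, with fitted values of -5.54 and -3.87 on the log2 scale without BMP2 plus inhibitor replicates 1 and 2. The fitted value of Tll2 was 6.78, and 7.70 without control replicate 2.

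Acvr1c, a type I receptor of activins, rose both with the inhibitor in Py2T-LT cells and with rosiglitazone in MTΔECad cells. It had 3.23 and 1.81 CPM with the inhibitor against 0.246 and 0.250 CPM in Py2T-LT controls, a ratio of 9.91 with an interval of 4.80 to 23.7. With rosiglitazone it had 4.06 and 4.81 CPM against 0 and 0.250 CPM in MTΔECad controls, a ratio of 33.6 with an interval of 12.8 to 125, and fitted log2 values of 4.10 and 9.13 without control replicates 1 and 2. The proteoglycan gene Bgn rose by 2.31 (SE 0.38) with the inhibitor. Pcsk6, a protease that matures ligands of the family, rose by 3.90 (SE 0.29) with rosiglitazone, and by 5.01 without control replicate 2. Between the untreated lines Fbn1, which encodes the matrix protein fibrillin 1, was higher in MTΔECad controls by 7.73 (SE 0.12), at 753 and 674 CPM against 2.77 and 3.94 CPM in Py2T-LT controls. The receptor-regulated SMAD gene Smad9 had 1 count over both MTΔECad control libraries against 155 in Py2T-LT controls, a ratio of 0.00685 with an interval of 0.000172 to 0.0388, and fitted log2 values of -9.27 and -5.96 without MTΔECad control replicates 1 and 2. Lefty1 was at 0 counts in both Py2T-LT control libraries and at least 7.08-fold higher in MTΔECad controls, while Bmp3 and Tll1 were at 0 counts in MTΔECad controls and at least 12.5-fold and 6.90-fold lower.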

How the data were processed

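RNA was sequenced from 10 libraries of mouse cells, 2 per group. Per the labels' protocols, total RNA from 2 independent experiments was made into libraries with a stranded total RNA kit, although the same text names poly-A RNA. The authors deposited raw counts of reads per gene. Per the submitters' processing notes, STAR and the genome build mm10 were used. For the STAR version, the counting tool and its use of strand the entry is: not given in the sources used here.

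Of 18103 gene identifiers, 18057 were named from RefSeq GRCm38.p6 and 3 from GENCODE M21, and the 43 without a name hold 0.763% of counts. Genes passing edgeR's filterByExpr over the 5 groups (13149) were fitted together in all 10 libraries with edgeR 4.0.16 (R 4.3.3), using TMM scaling, a robust quasi-likelihood fit with 5 residual degrees of freedom, and Benjamini-Hochberg adjustment per comparison at 0.05. The SE is the log2 fold change over the square root of the F statistic. On simulated data, with the spread taken from its trend over genes, the fit recovered 55.2% to 61.2% of log2 changes of 0.5. Of changes of 1 it recovered 83.6% to 95.5%. Genes whose replicates differ more than that trend were not simulated. Levels between genes are per kilobase of GENCODE exon union. Groups with fewer than 10 counts are given as a ratio with an exact 95% counting interval, and against 0 counts with a floor of 3 counts per library (at most 0.21 CPM). Library totals make 1 count at most 0.070 CPM.

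The 42 genes and the other lists were chosen with earlier results of these data known. Genes were described in full when they passed with a log2 fold change of at least 1 (up to 10 per comparison) or were among the 2 highest of their role per kilobase in a control group. Other pathway genes were named from a log2 fold change of 2 (up to 5 per comparison), with Id1, Smad6 and Smad7 throughout. Values of further genes of the 42 were added after they were seen. Same-numbered replicates of the compared groups deviated with correlations of -0.11 to 0.18, so the numbers were not taken to pair samples. Alternatives were DESeq2 1.42.0, its size factors in edgeR, no filter on low counts, only the compared groups, a replicate block and leaving out each library.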

Additional observations from a re-analysis of the deposited data

How the results depend on the processing

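Values under the alternatives were kept for the called results of the 42 genes and for a selection of results that had not passed. Over these 1104 values, 1007 kept their direction and their side of the threshold, 73 lost a call, 15 gained one and 9 turned direction. Results that had not passed and lay outside the selection are not in these counts. Of 91 called results for these genes, 25 lost the call under some alternative, 24 of them without 1 library, and none turned direction. With the MEK inhibitor alone, leaving out 1 library gave 3 to 4 genes that rose, against 5, and 5 to 9 that fell, against 8. With rosiglitazone it gave 1 that rose, against 2, 1 to 5 that fell, against 6, and 2 to 6 that changed, against 8, and without the filter on low counts 1 rose. Among the values kept, leaving out 1 library also turned some that had not passed, and their ranges were as follows. With BMP2 and the inhibitor against Py2T-LT controls, Gdf11 ran from -0.11 to 0.13 and Bmpr2 from -0.15 to 0.56. With the inhibitor, Bmpr1a ran from -0.08 to 0.02, Tgfbr3 from -0.15 to 0.01 and Nbl1 from -0.02 to 0.20. With rosiglitazone Id1 ran from -0.24 to 0.20, being 0.01 without rosiglitazone replicate 1. Between the lines Gdf5 ran from -0.85 to 0.60, being 0.01 without MTΔECad control replicate 1, Bmpr2 from -0.42 to 0.29 and Id1 from -0.18 to 0.26, being -0.06 without Py2T-LT control replicate 2. The cause was not tested, beyond each fit having 1 sample fewer. With the replicate number as a block, the numbers of the 42 that rose and fell equalled those without the block in all 5 comparisons (12 and 10, 5 and 8, 12 and 8, 2 and 6, 11 and 17), and 5148, 2245, 5024, 1833 and 8091 of all genes changed. A crossed pairing between the lines, chosen after seeing the data, gave 10 higher, 18 lower and 8122 genes changed. Depth limited genes under 10 counts per group, such as Grem1 and Gdf5.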
